A study of Homo sapiens with 20 samples.

Results

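The genes of sterol and fatty acid synthesis were followed in a human myeloma cell line exposed to histone deacetylase (HDAC) inhibitors. A named set of 35 genes was used, out of 78932 gene identifiers in the count table: the enzymes that build cholesterol and fatty acids, the sensors that switch them, proteins that move sterol in the cell, and targets of the liver X receptors (LXR). Members were taken by gene name. Each of the 35 names matched 1 Ensembl identifier, and 34 passed the filter on low counts. The member left out, ABCG1, a sterol exporter, had 10 counts in 1 panobinostat 20 h library and 4 and 6 counts in the romidepsin 20 h libraries, and 0 counts in the others.

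OPM2, an established multiple myeloma line, was treated with panobinostat at 10 nM, romidepsin at 10 nM or ricolinostat at 100 nM, or with the vehicle DMSO. Cells were taken at 2, 5 and 20 h of each inhibitor, with 2 independent replicates a group, which made 20 libraries in 10 groups. The DMSO group carries no harvest time in the labels, so each comparison with DMSO sets a timed group against the same 2 untimed libraries. One label field gives 10 nM for ricolinostat where the sample titles and the protocol give 100 nM. All groups were the same line, grown in serum, with the batch recorded as unknown. Panobinostat and ricolinostat are hydroxamates, and romidepsin is a cyclic depsipeptide; panobinostat acts broadly on HDACs, romidepsin mainly on class I HDACs and ricolinostat preferentially on HDAC6.

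Cholesterol is made from acetyl-CoA through mevalonate, isoprenoids, squalene and lanosterol. The transcription factors SREBP-1 and SREBP-2, from SREBF1 and SREBF2, are held in the endoplasmic reticulum by INSIG proteins bound to the escort SCAP when sterol is plentiful, and travel to the Golgi to be cut and released when it is scarce. SREBP-2 mainly drives the sterol enzymes and SREBP-1 mainly the fatty acid enzymes, while LXR, which senses oxysterols, drives SREBF1, sterol export and the ubiquitin ligase MYLIP.

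Libraries held 17264640 to 29088868 counts. The 35 members took 1.06% and 1.04% of all counts in the panobinostat 20 h libraries, 0.637% and 0.634% in the romidepsin 20 h libraries and 0.409% and 0.407% in the ricolinostat 20 h libraries, against 0.469% and 0.479% in the DMSO libraries. Of 8 myeloma and plasma cell markers, all were detected in DMSO, where their summed level was 5105 to 5110 CPM, the count relative to the scaled library size. That sum was 424 to 434 CPM with panobinostat at 20 h, 1015 to 1029 CPM with romidepsin at 20 h and 3796 to 3810 CPM with ricolinostat at 20 h. With romidepsin at 20 h, 7 of the 8 were called lower and 1, CD38, higher. CD38 had 17.8 and 17.0 CPM there, against 11.6 and 11.2 CPM in DMSO. The summed levels of the T and NK, myeloid, erythroid and epithelial markers were at most 7.01 CPM in any library. The myeloid sum was 6.97 to 7.01 CPM with panobinostat and 2.19 to 2.57 CPM with romidepsin at 20 h. In DMSO it was 0.169 to 0.335 CPM. The 4 stromal markers summed to 35.4 to 37.1 CPM with panobinostat and at least 26.8 CPM with romidepsin at 20 h, against 0.00 to 0.0745 CPM in DMSO, with COL1A1 at up to 34.8 CPM, DCN at up to 2.52 CPM, and COL1A2 and PDGFRB at or near 0. CPM are relative to library size and do not measure cell number. Whether fewer cells of the line carried these transcripts or each cell carried less cannot be told apart in such bulk libraries. The part of the falling sum of plasma cell markers in the results below was not tested.

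Most sterol genes rose with panobinostat from the first time point. At 2 h, 24 of the 34 tested members were higher than in DMSO, against 20.8% of the 20957 genes tested, and 5 were lower, against 18.1%, by edgeR's quasi-likelihood test with Benjamini-Hochberg adjustment at 0.05. At 5 h, 23 members were higher (30.7% of all genes) and 7 lower (25.9%). At 20 h, 20 were higher (40.8% of all genes) and 12 lower (32.3%). The median log2 fold change over the members was 0.54, 0.53 and 0.50 at 2, 5 and 20 h, beside 0.01, 0.12 and 0.25 over all genes. At least 2-fold higher were 7, 10 and 11 of the 34 members, against 6.09%, 17.6% and 29.5% of all genes, and at 20 h 4 members were at least 2-fold lower, against 17.8%. At 20 h the 11 at least 2-fold higher and the 12 lower lay near the shares of all genes.

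Romidepsin at the same 10 nM dose changed 4 members at 2 h and split the set at 5 and 20 h. At 2 h, 2 members were higher (3.55% of all genes) and 2 lower (4.62%). At 5 h, 9 were higher (13% of all genes) and 14 lower (16.5%), with a member median of -0.07 beside 0.02 over all genes. On library size alone, without trimmed-mean factors, the 14 lower became 9 and the member median 0.06, beside 0.14 over all genes. At 20 h the members split evenly, with 16 higher (38.6% of all genes) and 16 lower (29.9%), and their median of 0.05 lay below the 0.22 of all genes. At that hour 7 members were at least 2-fold higher (26.9% of all genes) and 3 at least 2-fold lower (13.5%). The higher count at 2 h was smaller whichever library was left out, and each such fit has only 1 library in a group. The 2 lower became 1 without DMSO replicate 2 or without romidepsin 2 h replicate 1.

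Ricolinostat gave an early rise that was gone by 20 h. At 2 h, 21 members were higher (16.9% of all genes) and 2 lower (14.5%). At 5 h, 20 were higher (18.8% of all genes) and 3 lower (15.3%). At 20 h, 3 were higher (14.7% of all genes) and 17 lower (16.4%), and the member median was -0.20 beside 0.03 over all genes, against medians of 0.30 at 2 h and 0.21 at 5 h. The early higher counts were smaller whichever library was left out, and each such fit has only 1 library in a group. The 21 became 13 without ricolinostat 2 h replicate 2, and the 20 became 12 without ricolinostat 5 h replicate 1 and 13 without DMSO replicate 1. The lower counts moved too, with 1 member lower at 2 h without DMSO replicate 1, 4 without ricolinostat 2 h replicate 1, and 5 at 5 h without ricolinostat 5 h replicate 1.

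**Figure D1:**
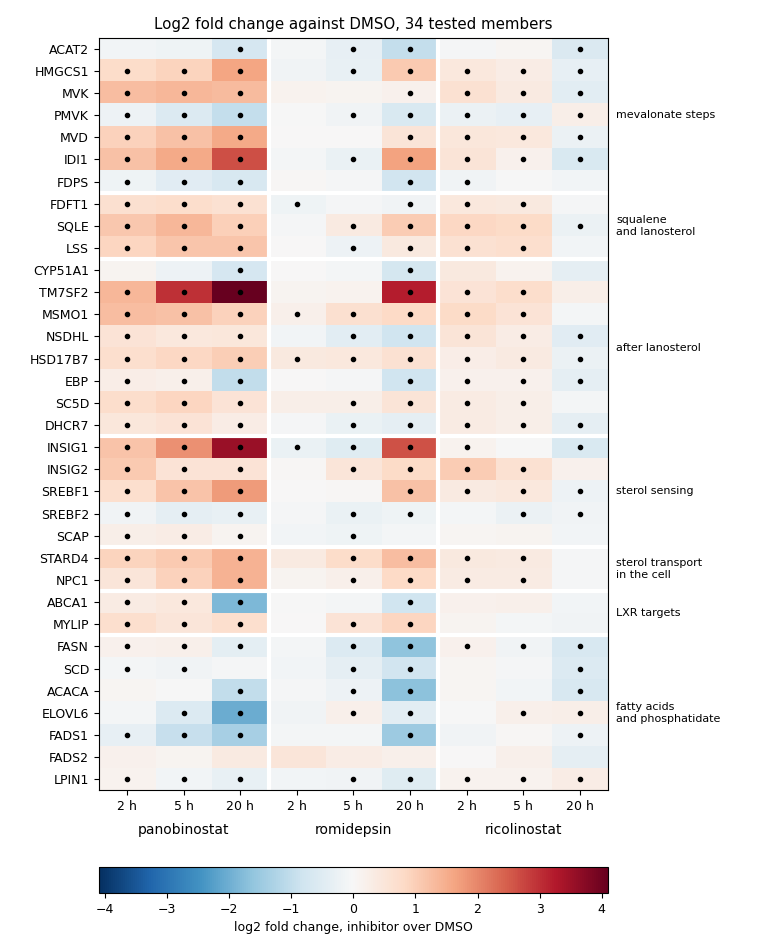
Log2 fold change of the 34 tested members over DMSO (colour), with rows grouped by role and columns by inhibitor and hour, and a black dot where the adjusted p was below 0.05. Panobinostat columns are mostly red at every hour, with TM7SF2 at 4.09 and INSIG1 at 3.55 at 20 h, and the rows of FASN, ACACA and FADS1 are blue at 20 h with all 3 inhibitors.

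Scaling to total library size alone, in place of the trimmed-mean factors used throughout, moved the values of all genes together. The median over all genes became 0.25 in place of 0.12 for panobinostat at 5 h, 0.56 in place of 0.25 at 20 h, 0.14 in place of 0.02 for romidepsin at 5 h, 0.46 in place of 0.22 at 20 h, and 0.13 in place of 0.03 for ricolinostat at 20 h. With it, the higher share of all calls became 65.9% in place of 55.8% for panobinostat at 20 h, 65.6% in place of 43.4% for romidepsin at 2 h, 71.3% in place of 44.1% for romidepsin at 5 h and 66.2% in place of 47.3% for ricolinostat at 20 h. Where this scaling ended or turned the call of a change over DMSO described below, its value on library size alone is given there.

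In the mevalonate steps, 4 of 7 enzymes rose with panobinostat at each hour, beside 20.8%, 30.7% and 40.8% of all genes at 2, 5 and 20 h: HMGCS1, MVK, MVD and IDI1. At 20 h the other 3 fell, beside 32.3% of all genes. IDI1 (ENSG00000067064, chromosome 10, 1039152-1049170, minus strand of GRCh38), the isomerase that interconverts the activated isoprene units, rose most. With panobinostat, IDI1 had 199.9 and 193 CPM at 2 h, 257 and 254 CPM at 5 h, and 534 and 551 CPM at 20 h. With romidepsin it had 81.9 and 80.5 CPM at 2 h, 72.5 and 70.5 CPM at 5 h, and 269 and 269 CPM at 20 h. With ricolinostat it had 123 and 126 CPM at 2 h, 96.5 and 97.6 CPM at 5 h, and 57.1 and 53.8 CPM at 20 h, and in DMSO 86.1 and 86.7 CPM. All 6 panobinostat libraries and both romidepsin 20 h libraries lay above every DMSO library, while the romidepsin 2 and 5 h libraries and the ricolinostat 20 h libraries lay below both. The log2 fold change over DMSO was 2.65 ± 0.05 (SE; edgeR adjusted p = 8.4e-75) with panobinostat at 20 h and 1.64 ± 0.05 (SE; edgeR adjusted p = 4.7e-56) with romidepsin at 20 h, and IDI1 fell by 0.64 ± 0.05 (SE; adjusted p = 3.3e-20) with ricolinostat at 20 h. The small rise with ricolinostat at 5 h, 0.17 ± 0.05, lost its call without any 1 of its 4 libraries, with values of 0.06 to 0.13. Of its exonic bases 643 are shared with IDI2-AS1 on the other strand, and 3 pseudogenes named after IDI1 are among the counted genes.

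HMGCS1, the cytosolic synthase that makes HMG-CoA, and MVD, which decarboxylates diphosphomevalonate, moved in the same order of inhibitors. With panobinostat, HMGCS1 had 80.5 and 81.5 CPM at 2 h, 92.6 and 88.6 CPM at 5 h, and 144 and 152 CPM at 20 h. Under romidepsin its level was 43.04 and 44.2 CPM at 2 h, 38.97 and 38.95 CPM at 5 h, and 100.2 and 102 CPM at 20 h. Ricolinostat libraries held 63.3 and 65.7 CPM at 2 h, 58.4 and 61.4 CPM at 5 h, and 36.1 and 39.7 CPM at 20 h, and DMSO libraries 46.4 and 49.4 CPM. The panobinostat libraries climbed at every hour, the romidepsin libraries stood below DMSO at 2 and 5 h and above it at 20 h, and the ricolinostat libraries were above DMSO at 2 and 5 h and below it at 20 h. HMGCS1 was 3.09-fold the DMSO level with panobinostat and 2.11-fold with romidepsin at 20 h (log2 fold change 1.63 ± 0.06 SE, edgeR adjusted p = 9.8e-47, and 1.08 ± 0.06 SE, edgeR adjusted p = 7.3e-32).

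With panobinostat, MVD had 89.6 and 87.9 CPM at 2 h, 106 and 106 CPM at 5 h, and 143 and 130.0 CPM at 20 h. Romidepsin libraries held 47.7 and 45.5 CPM at 2 h, 47.9 and 46.3 CPM at 5 h, and 69.05 and 63.8 CPM at 20 h of MVD. Ricolinostat libraries held 63.6 and 63.9 CPM at 2 h, 58.1 and 66.5 CPM at 5 h, and 39.6 and 39.2 CPM at 20 h, and DMSO libraries 43.6 and 48.5 CPM. MVD overlapped DMSO in the romidepsin libraries at 2 and 5 h and in no other group. Its log2 fold change was 1.57 ± 0.06 (SE; edgeR adjusted p = 1.3e-43) with panobinostat at 20 h and 0.53 ± 0.06 (SE; edgeR adjusted p = 3.4e-12) with romidepsin at 20 h. The fall with ricolinostat at 20 h, -0.23 ± 0.07, was -0.15 without DMSO replicate 2 and -0.12 on library size alone, and called in neither.

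The other mevalonate enzymes did not all follow. MVK, mevalonate kinase, was 2.39-fold the DMSO level with panobinostat already at 2 h and 2.46-fold at 20 h, whereas with romidepsin at 20 h its log2 fold change of 0.18 ± 0.08 lost its call without any 1 library, at 0.10 to 0.17. PMVK, the kinase of the next step, fell with panobinostat by 0.22 ± 0.05, 0.55 ± 0.05 and 0.97 ± 0.05 on the log2 scale at 2, 5 and 20 h, and with romidepsin at 20 h by 0.64 ± 0.05. FDPS, which makes farnesyl diphosphate, fell by 0.65 ± 0.05 with panobinostat and by 0.78 ± 0.05 with romidepsin at 20 h, and ACAT2, the cytosolic acetoacetyl-CoA thiolase, by 0.70 ± 0.08, 0.98 ± 0.08 and 0.60 ± 0.08 with panobinostat, romidepsin and ricolinostat at 20 h. PMVK was the 1 sterol enzyme that rose with ricolinostat at 20 h, by 0.24 ± 0.05 (adjusted p = 1.2e-05). FDPS has 8 pseudogenes named after it, and ACAT2 shares 1141 exonic bases with SOD2 on the other strand, so reads of these genes may be split or shared.

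The 3 enzymes of squalene and lanosterol all rose with panobinostat at 2, 5 and 20 h, beside 20.8%, 30.7% and 40.8% of all genes. All 3 also rose with ricolinostat at 2 and 5 h, beside 16.9% and 18.8% of all genes. SQLE, the epoxidase that is a rate-limiting step after mevalonate, had 148 and 161 CPM at 2 h, 186 and 188 CPM at 5 h, and 143 and 141 CPM at 20 h with panobinostat. With romidepsin, SQLE had 70.9 and 70.8 CPM at 2 h, 95.5 and 92.8 CPM at 5 h, and 149 and 150.4 CPM at 20 h. With ricolinostat, SQLE had 127 and 132 CPM at 2 h, 118 and 132 CPM at 5 h, and 64.2 and 58.9 CPM at 20 h, and in DMSO 71.7 and 73.3 CPM. Both romidepsin libraries at 5 h stood above DMSO, and at 20 h they stood just above the panobinostat libraries. The log2 fold change over DMSO was 1.37 ± 0.05 (SE; edgeR adjusted p = 1e-43) for panobinostat at 5 h, 1.05 ± 0.05 (SE; edgeR adjusted p = 5.1e-35) for romidepsin at 20 h and 0.83 ± 0.05 (SE; edgeR adjusted p = 2.4e-26) for ricolinostat at 2 h. The fall with ricolinostat at 20 h, -0.24 ± 0.06, was -0.13 and not called on library size alone.

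LSS, the cyclase that closes the sterol ring to give lanosterol, had 301 and 295 CPM at 2 h, 358 and 353 CPM at 5 h, and 347 and 359.8 CPM at 20 h with panobinostat. Under romidepsin, LSS stood at 155 and 168 CPM at 2 h, 141 and 138 CPM at 5 h, and 214 and 211 CPM at 20 h. Under ricolinostat it stood at 243 and 256 CPM at 2 h, 249 and 275 CPM at 5 h, and 149 and 151 CPM at 20 h, and in DMSO at 156 and 165 CPM. LSS peaked at 5 h with panobinostat and held there, and with romidepsin it overlapped DMSO at 2 h, dipped at 5 h and rose at 20 h. The fold over DMSO was 2.20 with panobinostat and 1.33 with romidepsin at 20 h (log2 1.14 ± 0.04 SE, edgeR adjusted p = 5.4e-44, and 0.41 ± 0.04 SE, edgeR adjusted p = 4.9e-14), and the dip at 5 h, -0.20 ± 0.05, was -0.07 and not called on library size alone.

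FDFT1, squalene synthase and the first enzyme committed to sterol, had 155 and 148 CPM at 2 h, 162 and 159 CPM at 5 h, and 146 and 149.8 CPM at 20 h with panobinostat. Romidepsin libraries held 85.6 and 84.9 CPM at 2 h, 91.2 and 94.7 CPM at 5 h, and 86.5 and 88.8 CPM at 20 h of FDFT1. Ricolinostat libraries held 131 and 131 CPM at 2 h, 124 and 130.1 CPM at 5 h, and 94.03 and 91.5 CPM at 20 h, and DMSO libraries 95.03 and 98.2 CPM. FDFT1 was the 1 gene of these 3 that no romidepsin library raised above DMSO. It was 0.61 ± 0.05 (SE; edgeR adjusted p = 2.4e-21) with panobinostat and -0.14 ± 0.05 (SE; edgeR adjusted p = 0.011) with romidepsin at 20 h on the log2 scale. The romidepsin value was 0.10 on library size alone, and the call of -0.18 ± 0.05 with romidepsin at 2 h ended at -0.17 without DMSO replicate 2, at -0.20 and -0.19 without romidepsin 2 h replicate 1 and replicate 2, and at -0.13 on library size alone.

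After lanosterol, panobinostat raised 7 of 8 enzymes at 2 and 5 h, beside 20.8% and 30.7% of all genes. At 20 h it raised 6 and lowered 2, beside 40.8% and 32.3% of all genes. TM7SF2 (ENSG00000149809, chromosome 11, 65111845-65116384, plus strand), a sterol C14 reductase of the endoplasmic reticulum, changed more than any other of the 34 tested members. With panobinostat, TM7SF2 had 15.9 and 14.5 CPM at 2 h, 47.8 and 44.8 CPM at 5 h, and 101 and 98.4 CPM at 20 h. With romidepsin it had 5.96 and 6.53 CPM at 2 h, 5.92 and 7.09 CPM at 5 h, and 54.4 and 53.8 CPM at 20 h. With ricolinostat it had 9.84 and 7.58 CPM at 2 h, 8.92 and 10.6 CPM at 5 h, and 7.28 and 6.44 CPM at 20 h, and in DMSO 6.06 and 5.63 CPM. All panobinostat and ricolinostat libraries lay above both DMSO libraries, and the romidepsin libraries overlapped DMSO at 2 and 5 h and lay above it at 20 h. TM7SF2 was 7.92-fold the DMSO level with panobinostat at 5 h and 17.1-fold at 20 h (log2 2.99 ± 0.11 SE, edgeR adjusted p = 6.8e-46, and 4.09 ± 0.10 SE, edgeR adjusted p = 2.7e-60), and 9.27-fold with romidepsin at 20 h (log2 3.21 ± 0.11 SE, edgeR adjusted p = 8.1e-50). Its ricolinostat value at 2 h, 0.57 ± 0.13, fell to 0.29 without ricolinostat 2 h replicate 1 and was then not called.

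MSMO1, the methylsterol monooxygenase that starts removal of the C4 methyl groups, rose early with all inhibitors. With panobinostat, MSMO1 had 83.3 and 92.3 CPM at 2 h, 83.5 and 85.3 CPM at 5 h, and 71.03 and 70.5 CPM at 20 h. Romidepsin libraries held 42.9 and 42.8 CPM at 2 h, 59.7 and 55.3 CPM at 5 h, and 65.97 and 65.2 CPM at 20 h of MSMO1. Ricolinostat libraries held 63.8 and 63.5 CPM at 2 h, 53.6 and 56.1 CPM at 5 h, and 35.6 and 33.8 CPM at 20 h, and DMSO libraries 37.3 and 36.5 CPM. The panobinostat libraries were highest at 2 and 5 h, the romidepsin libraries climbed with the hour, and the ricolinostat libraries fell back to just under DMSO at 20 h. The log2 fold change at 2 h was 1.25 ± 0.06 (SE; edgeR adjusted p = 2e-33) with panobinostat, 0.22 ± 0.07 with romidepsin and 0.79 ± 0.07 with ricolinostat. The romidepsin call at 2 h ended without any 1 of its 4 libraries, at 0.19 to 0.22.

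HSD17B7, a ketosteroid reductase of the C4 demethylation, had 31.2 and 29.3 CPM at 2 h, 32.9 and 35.7 CPM at 5 h, and 40.6 and 36.05 CPM at 20 h with panobinostat. With romidepsin, HSD17B7 had 25.3 and 24.7 CPM at 2 h, 24.4 and 27.2 CPM at 5 h, and 28.9 and 29.4 CPM at 20 h. With ricolinostat, HSD17B7 had 23.6 and 22.1 CPM at 2 h, 24.96 and 23.8 CPM at 5 h, and 15.4 and 16.5 CPM at 20 h, and in DMSO 18.3 and 19.5 CPM. Every library of panobinostat and of romidepsin stood above both DMSO libraries. The log2 fold change was 1.02 ± 0.09 (SE; edgeR adjusted p = 2.2e-19) with panobinostat and 0.63 ± 0.09 (SE; edgeR adjusted p = 1.4e-09) with romidepsin at 20 h. The romidepsin value at 2 h was 0.41 ± 0.09, and 0.35 and not called without DMSO replicate 1. The ricolinostat values of 0.28 ± 0.09, 0.37 ± 0.09 and -0.25 ± 0.10 at 2, 5 and 20 h did not keep their calls. At 2 h the value was 0.21, 0.14 and 0.25 without DMSO replicate 1, ricolinostat 2 h replicate 1 and ricolinostat 2 h replicate 2, at 5 h it was 0.28 and 0.22 without DMSO replicate 1 and ricolinostat 5 h replicate 1, and at 20 h any 1 of the 4 libraries left out (-0.20 to -0.31) or library size alone (-0.14) ended the call. HSD17B7 has 3 pseudogenes named after it among the counted genes that could share its reads.

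Of the others in that stretch, DHCR7, the last enzyme before cholesterol in one branch, NSDHL, a C4 decarboxylating dehydrogenase, and SC5D, a sterol desaturase, rose with panobinostat at 2 h by 0.47 ± 0.05, 0.57 ± 0.07 and 0.73 ± 0.09. With romidepsin at 20 h, NSDHL and DHCR7 fell by 0.81 ± 0.08 and 0.36 ± 0.05 and SC5D rose by 0.52 ± 0.09. EBP, the sterol isomerase, fell at 20 h by 1.01 ± 0.07 with panobinostat, 0.82 ± 0.07 with romidepsin and 0.37 ± 0.07 with ricolinostat, and its small early rises with panobinostat, 0.26 ± 0.07 at 2 h and 0.21 ± 0.07 at 5 h, were 0.13 and 0.08 and not called without replicate 1 of that group, and the second was 0.16 and not called without DMSO replicate 1. CYP51A1, the lanosterol demethylase, was low at 4.54 and 4.96 CPM with panobinostat at 20 h and 4.05 and 5.16 CPM with romidepsin at 20 h, against 7.41 and 7.90 CPM in DMSO, falls of 0.69 ± 0.17 and 0.73 ± 0.18. CYP51A1 shares 2844 of its 3584 exonic bases with another protein-coding gene on the same strand, so its level may be understated, and it has 3 named pseudogenes.

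Among the sensors, INSIG1 (ENSG00000186480, chromosome 7, 155297776-155310235, plus strand), the retention protein whose gene is itself an SREBP target, gave the largest change after TM7SF2. With panobinostat, INSIG1 had 459.7 and 474 CPM at 2 h, 780.3 and 758 CPM at 5 h, and 2452 and 2427 CPM at 20 h. With romidepsin it had 168 and 177 CPM at 2 h, 151 and 145 CPM at 5 h, and 1295 and 1247 CPM at 20 h. With ricolinostat it had 243 and 219 CPM at 2 h, 205 and 207 CPM at 5 h, and 137 and 133 CPM at 20 h, and in DMSO 199 and 217 CPM. The panobinostat libraries stood above DMSO at every hour, and the romidepsin libraries stood below DMSO at 2 and 5 h and far above it at 20 h. INSIG1 was 11.7-fold the DMSO level with panobinostat at 20 h (log2 3.55 ± 0.04 SE, edgeR adjusted p = 1.2e-88) and 6.10-fold with romidepsin (log2 2.61 ± 0.04 SE, edgeR adjusted p = 2.5e-77). With romidepsin it fell by 0.27 ± 0.04 at 2 h and 0.49 ± 0.04 at 5 h, and with ricolinostat at 20 h by 0.63 ± 0.04. The ricolinostat value at 2 h, 0.15 ± 0.04, was -0.01 without ricolinostat 2 h replicate 1, 0.07 without DMSO replicate 1 and 0.15 without ricolinostat 2 h replicate 2, and not called in any of these.

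INSIG2, its paralogue, behaved otherwise. With panobinostat, INSIG2 had 42.8 and 43.2 CPM at 2 h, 31.4 and 28.96 CPM at 5 h, and 29.5 and 30.97 CPM at 20 h. With romidepsin, INSIG2 had 21.00 and 21.2 CPM at 2 h, 28.00 and 29.3 CPM at 5 h, and 34.3 and 35.3 CPM at 20 h. With ricolinostat, INSIG2 had 41.4 and 43.3 CPM at 2 h, 32.2 and 30.8 CPM at 5 h, and 22.1 and 23.7 CPM at 20 h, and in DMSO 21.9 and 19.05 CPM. The panobinostat and ricolinostat libraries were highest at 2 h and lower afterwards, and the romidepsin libraries left the DMSO range at 5 h. At 2 h the log2 fold change was 1.08 ± 0.08 (SE; edgeR adjusted p = 2.7e-21) with panobinostat and 1.05 ± 0.08 (SE; edgeR adjusted p = 2.3e-20) with ricolinostat, the 1 member at least 2-fold higher with ricolinostat at that hour, against 2.45% of all genes. With romidepsin it was 0.05 ± 0.09 at 2 h, not called, and 0.77 ± 0.08 (SE; edgeR adjusted p = 4.5e-14) at 20 h.

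The 2 SREBP genes parted. SREBF1 (ENSG00000072310, chromosome 17, 17810399-17837002, minus strand) had 887 and 875 CPM at 2 h, 1230.1 and 1201 CPM at 5 h, and 1853 and 1819.8 CPM at 20 h with panobinostat. Its level with romidepsin was 541 and 567 CPM at 2 h, 595 and 545 CPM at 5 h, and 1242 and 1243 CPM at 20 h. Its level with ricolinostat was 708 and 708 CPM at 2 h, 704 and 773 CPM at 5 h, and 478 and 473 CPM at 20 h, and in DMSO 544 and 549 CPM. Every panobinostat library, the romidepsin 20 h libraries and the ricolinostat 2 and 5 h libraries stood above DMSO, and the romidepsin libraries overlapped DMSO at 2 and 5 h. SREBF1 was 3.36-fold the DMSO level with panobinostat at 20 h (log2 1.75 ± 0.04 SE, edgeR adjusted p = 1.3e-65) and 2.27-fold with romidepsin (log2 1.19 ± 0.04 SE, edgeR adjusted p = 6.4e-51), and fell by 0.20 ± 0.04 with ricolinostat.

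SREBF2 (ENSG00000198911, chromosome 22, 41833079-41907308, plus strand) had 431 and 443 CPM at 2 h, 374 and 374 CPM at 5 h, and 380.0 and 389 CPM at 20 h with panobinostat. Romidepsin libraries held 461 and 464 CPM at 2 h, 414 and 386 CPM at 5 h, and 412 and 427 CPM at 20 h of SREBF2. Ricolinostat libraries held 455 and 450.0 CPM at 2 h, 405 and 399.6 CPM at 5 h, and 433 and 424 CPM at 20 h, and DMSO libraries 473 and 484 CPM. Every treated library was below both DMSO libraries, by small amounts. The log2 fold change was -0.36 ± 0.04 (SE; edgeR adjusted p = 4.4e-14) with panobinostat, -0.26 ± 0.04 (SE; edgeR adjusted p = 2.3e-08) with romidepsin and -0.25 ± 0.04 (SE; edgeR adjusted p = 3.6e-08) with ricolinostat at 5 h. At 20 h it was -0.31 ± 0.04, -0.19 ± 0.04 and -0.16 ± 0.04, and on library size alone these became -0.01, 0.05 and -0.06 and were not called. At 2 h it was called with panobinostat, -0.13 ± 0.04, and was -0.22 without panobinostat 2 h replicate 2. SREBF1 shares 556 exonic bases with RAI1 and SREBF2 shares 280 with SREBF2-AS1, both on the other strand.

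SCAP, the escort, stayed within a narrow range. With panobinostat, SCAP had 164 and 158 CPM at 2 h, 171 and 169 CPM at 5 h, and 143 and 149 CPM at 20 h. Romidepsin libraries held 126 and 126 CPM at 2 h, 121 and 120.2 CPM at 5 h, and 129 and 127 CPM at 20 h of SCAP. Ricolinostat libraries held 146 and 142 CPM at 2 h, 141 and 151 CPM at 5 h, and 126 and 128 CPM at 20 h, and DMSO libraries 138 and 134 CPM. Panobinostat libraries lay above both DMSO libraries and romidepsin libraries below both at each hour, and ricolinostat libraries above them at 2 and 5 h and below at 20 h. SCAP rose with panobinostat by 0.24 ± 0.05 at 2 h and 0.32 ± 0.05 at 5 h, and its value at 20 h, 0.10 ± 0.05, lay at the threshold, was -0.00 without DMSO replicate 2 and lost its call without any 1 of its 4 libraries. With romidepsin it fell by 0.18 ± 0.05 at 5 h (-0.05 and not called on library size alone), and at 20 h its value of -0.09 ± 0.05 was not called, while library size alone gave 0.15.

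**Figure D2:**
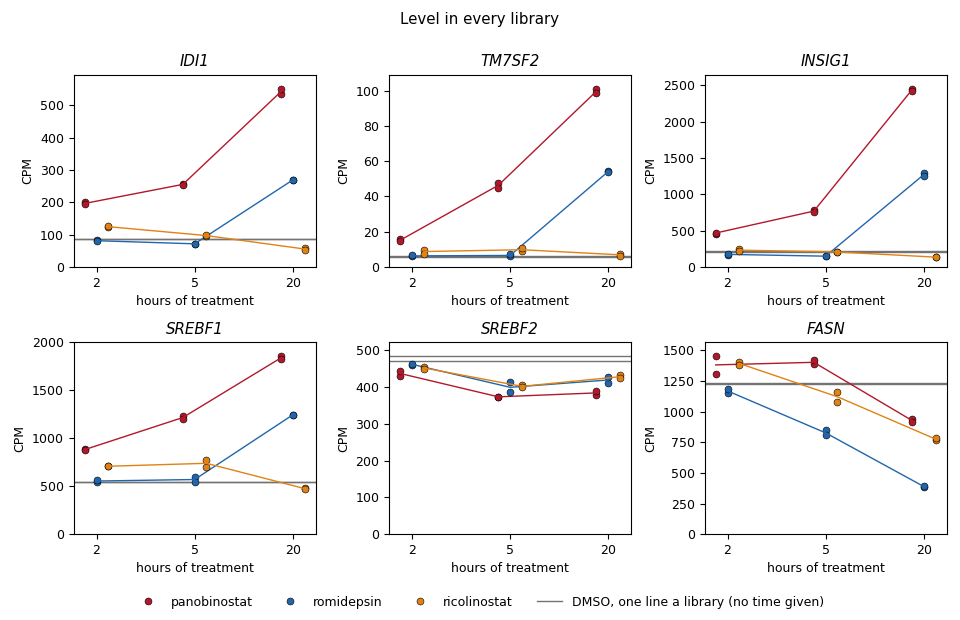
Level in CPM in each library (points) at 2, 5 and 20 h for 3 sterol genes, both SREBP genes and FASN, with lines through group means, the 2 DMSO libraries as grey horizontal lines, and vertical axes that start at 0. IDI1, TM7SF2, INSIG1 and SREBF1 climb from 2 h with panobinostat and only at 20 h with romidepsin, SREBF2 stays just under its DMSO lines, and FASN ends below its DMSO lines with all 3 inhibitors.

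Stretches upstream of RefSeq start sites are shown for genes that moved apart, to set their motifs beside the values above. They are INSIG1 and HMGCS1, which rose, and SREBF1, which rose, against SREBF2, which did not. ELOVL6, which fell most among the fatty acid genes with panobinostat at 20 h, is shown too. Sequences are from RefSeq, build GRCh38.p14, read 5′ to 3′ on the gene's own strand and without bases that lie in exons of protein-coding genes: INSIG1 at chr7:155297628-155297775 (plus strand), HMGCS1 at chr5:43313513-43313662 (minus), SREBF1 at chr17:17837003-17837236 (minus), SREBF2 at chr22:41832855-41833078 (plus) and ELOVL6 at chr4:110198677-110198841 (minus). Each is the longest run free of such exons in the 250 bases before a start of its gene. The stretches end 102 (INSIG1), 100 (HMGCS1), 16 (SREBF1), 26 (SREBF2) and 61 (ELOVL6) bases before that start, so the bases nearest to it are not shown. The ELOVL6 stretch lies inside the gene as the annotation used for its position here places it, since the RefSeq start is further downstream. Capitals mark the sterol regulatory element, the classical SREBP site, which is TCACCCCAC with an A before it, and the CCAAT box, bound by NF-Y, which reads ATTGG on the opposite strand.
INSIG1: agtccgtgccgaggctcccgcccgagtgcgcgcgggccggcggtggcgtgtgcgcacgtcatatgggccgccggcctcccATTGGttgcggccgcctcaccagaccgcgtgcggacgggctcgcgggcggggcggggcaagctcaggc
HMGCS1: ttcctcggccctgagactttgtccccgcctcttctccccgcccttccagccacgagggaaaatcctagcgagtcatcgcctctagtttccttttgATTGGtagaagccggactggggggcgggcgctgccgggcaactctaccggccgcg
SREBF1: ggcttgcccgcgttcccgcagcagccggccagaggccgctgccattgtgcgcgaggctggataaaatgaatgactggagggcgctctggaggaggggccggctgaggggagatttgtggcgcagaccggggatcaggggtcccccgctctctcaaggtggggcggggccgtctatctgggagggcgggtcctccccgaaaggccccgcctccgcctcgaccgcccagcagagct
SREBF2: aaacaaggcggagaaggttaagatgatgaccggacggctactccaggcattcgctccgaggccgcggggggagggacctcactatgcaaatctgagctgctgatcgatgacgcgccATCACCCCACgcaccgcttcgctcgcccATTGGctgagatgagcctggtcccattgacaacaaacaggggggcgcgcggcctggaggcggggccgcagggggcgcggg
ELOVL6: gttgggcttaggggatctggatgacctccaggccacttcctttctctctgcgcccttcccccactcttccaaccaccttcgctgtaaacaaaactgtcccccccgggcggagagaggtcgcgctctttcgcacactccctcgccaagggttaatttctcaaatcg
INSIG1 and HMGCS1 each hold 1 CCAAT box there, SREBF2 holds 1 sterol element and 1 CCAAT box, and SREBF1 and ELOVL6 hold neither. The SREBF1 stretch lies just outside the gene's listed end, and stretches before any start further inside the gene are not shown. RefSeq promoter windows matched 30 of the 35 members, and 5 motifs were searched on both strands in the 250 bases before the start. The sterol element was in 1 of the 30 members, SREBF2, and in 9 of 15842 protein-coding genes (0.0568%), and its looser form TCACNCCAC, which overlaps it, was in the same 1 member and in 1.19% of genes. The CCAAT box was in 19 of 30 members (63.3%), against 40.2% of genes: 5 of 6 mevalonate genes, 7 of 8 genes after lanosterol, 2 of 5 sensors and 2 of 6 genes of the fatty acid and phosphatidate group. The GC box GGGCGG was in 29 of 30 members (96.7%), against 62.1%, and the LXR repeat, AGGTCA followed by 4 bases of any kind and a second AGGTCA, was in none and in 0.00631% of genes. These are matches of letters in a short window and not measured binding.

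The 2 proteins that move sterol in the cell rose with panobinostat at each hour and with romidepsin at 5 and 20 h. Over all genes, 20.8%, 30.7% and 40.8% rose with panobinostat at 2, 5 and 20 h. With romidepsin, 13% and 38.6% of all genes rose at 5 and 20 h. With panobinostat, STARD4, a cytosolic sterol carrier, had 16.4 and 17.6 CPM at 2 h, 18.1 and 20.3 CPM at 5 h, and 24.3 and 24.9 CPM at 20 h. Romidepsin libraries held 11.7 and 11.7 CPM at 2 h, 15.6 and 15.3 CPM at 5 h, and 20.4 and 23.5 CPM at 20 h of STARD4. Ricolinostat libraries held 11.4 and 12.9 CPM at 2 h, 11.96 and 11.7 CPM at 5 h, and 9.67 and 7.84 CPM at 20 h, and DMSO libraries 8.47 and 9.73 CPM. All panobinostat and romidepsin libraries stood above DMSO. The log2 fold change at 20 h was 1.43 ± 0.12 (SE; edgeR adjusted p = 6.6e-21) with panobinostat and 1.27 ± 0.12 (SE; edgeR adjusted p = 1.8e-17) with romidepsin. The ricolinostat values, 0.41 ± 0.13 at 2 h and 0.38 ± 0.13 at 5 h, lost their calls at 0.30 and 0.24 without DMSO replicate 1, at 0.25 without ricolinostat 2 h replicate 2, and at 0.25 and 0.36 without ricolinostat 5 h replicate 1 and replicate 2.

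NPC1, which takes cholesterol out of late endosomes and lysosomes, had 63.8 and 62.8 CPM at 2 h, 88.01 and 83.6 CPM at 5 h, and 120.2 and 118 CPM at 20 h with panobinostat. With romidepsin, NPC1 had 48.3 and 47.2 CPM at 2 h, 51.2 and 50.4 CPM at 5 h, and 77.8 and 78.4 CPM at 20 h. With ricolinostat, NPC1 had 53.6 and 57.8 CPM at 2 h, 56.9 and 55.9 CPM at 5 h, and 45.8 and 40.2 CPM at 20 h, and in DMSO 43.1 and 45.7 CPM. Panobinostat libraries climbed at every hour, and only the ricolinostat 20 h group overlapped DMSO. NPC1 was 2.68-fold the DMSO level with panobinostat at 20 h (log2 1.42 ± 0.06 SE, edgeR adjusted p = 1.5e-40) and 1.76-fold with romidepsin (log2 0.81 ± 0.06 SE, edgeR adjusted p = 3e-22). With romidepsin at 5 h it was 0.19 ± 0.06. That call ended at 0.14 without DMSO replicate 1 and at 0.17 and 0.18 without romidepsin 5 h replicate 1 and replicate 2. With size factors of the DESeq2 type and all libraries kept, NPC1 was at 0.15 and not called. With ricolinostat it was 0.33 ± 0.06 at 2 h and 0.35 ± 0.06 at 5 h, with 0.20, not called, without ricolinostat 2 h replicate 2 and 0.22 without ricolinostat 5 h replicate 1.

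The LXR targets did not move as a group. ABCA1, the exporter of cholesterol to apolipoprotein A-I, had 19.4 and 21.7 CPM at 2 h, 21.5 and 21.8 CPM at 5 h, and 4.50 and 4.57 CPM at 20 h with panobinostat. Its level with romidepsin was 16.3 and 15.9 CPM at 2 h, 14.6 and 16.04 CPM at 5 h, and 7.81 and 10.4 CPM at 20 h. Its level with ricolinostat was 19.8 and 16.9 CPM at 2 h, 18.5 and 18.9 CPM at 5 h, and 13.2 and 17.1 CPM at 20 h, and in DMSO 14.1 and 18.2 CPM. At 20 h the panobinostat libraries were far below DMSO and the romidepsin libraries below it, while ricolinostat overlapped DMSO at 2 and 20 h. ABCA1 fell by 1.83 ± 0.14 (SE; edgeR adjusted p = 4.4e-22) with panobinostat and by 0.82 ± 0.13 (adjusted p = 1.9e-08) with romidepsin at 20 h. The earlier rises with panobinostat, 0.35 ± 0.12 at 2 h and 0.42 ± 0.12 at 5 h, were 0.16 and 0.22 and not called without DMSO replicate 1, and the first was 0.19 without panobinostat 2 h replicate 2.

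MYLIP, the ubiquitin ligase that marks lipoprotein receptors for degradation, had 48.5 and 50.3 CPM at 2 h, 42.3 and 44.3 CPM at 5 h, and 47.9 and 49.4 CPM at 20 h with panobinostat. Romidepsin libraries held 30.9 and 30.2 CPM at 2 h, 44.96 and 44.8 CPM at 5 h, and 55.96 and 56.1 CPM at 20 h of MYLIP. Ricolinostat libraries held 33.00 and 32.1 CPM at 2 h, 28.04 and 29.8 CPM at 5 h, and 27.7 and 27.2 CPM at 20 h, and DMSO libraries 29.3 and 31.5 CPM. MYLIP stood above DMSO in every panobinostat library and in the romidepsin libraries at 5 and 20 h. With romidepsin at 2 h and with ricolinostat at each hour it was not called. Its log2 fold change was 0.70 ± 0.07 (SE; edgeR adjusted p = 1.5e-14) with panobinostat at 2 h and 0.88 ± 0.07 (SE; edgeR adjusted p = 1.3e-20) with romidepsin at 20 h.

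Most of the fatty acid enzymes were lower than DMSO at 20 h. Of 6, none rose and 4 fell with panobinostat at 20 h, none rose and 5 fell with romidepsin, and 1 rose and 4 fell with ricolinostat, with medians of -0.70, -1.14 and -0.47. Over all genes at 20 h, 40.8% rose and 32.3% fell with panobinostat, 38.6% and 29.9% with romidepsin, and 14.7% and 16.4% with ricolinostat, with medians of 0.25, 0.22 and 0.03. Over the 18 sterol synthesis enzymes 13 rose and 5 fell with panobinostat at 20 h, 10 rose and 8 fell with romidepsin, and 1 rose and 10 fell with ricolinostat, with medians of 0.78, 0.29 and -0.24. At 2 h the 6 fatty acid enzymes counted 1 higher and 2 lower with panobinostat, none with romidepsin and 1 higher with ricolinostat, while 14 of the 18 sterol enzymes were higher with panobinostat and 14 with ricolinostat. Over all genes at 2 h, 20.8% were higher and 18.1% lower with panobinostat, 3.55% and 4.62% with romidepsin, and 16.9% and 14.5% with ricolinostat.

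**Figure D3:**
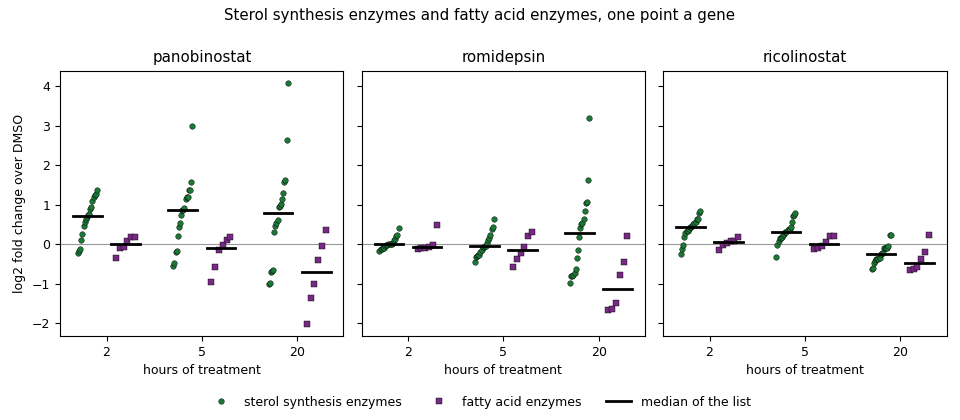
Log2 fold change over DMSO of the 18 sterol synthesis enzymes (circles) and the 6 fatty acid enzymes (squares) at 2, 5 and 20 h, 1 panel an inhibitor, with a black bar at each list's median. With panobinostat the sterol median is 0.70, 0.87 and 0.78 and the fatty acid median -0.01, -0.09 and -0.70 at the 3 hours; with ricolinostat both medians are below 0 at 20 h, at -0.24 and -0.47.

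FASN (ENSG00000169710, chromosome 17, 82078333-82098332, minus strand), the synthase that builds palmitate, had 1310.4 and 1451 CPM at 2 h, 1387 and 1417 CPM at 5 h, and 941 and 914 CPM at 20 h with panobinostat. With romidepsin, FASN had 1154 and 1183 CPM at 2 h, 847 and 806 CPM at 5 h, and 385 and 393 CPM at 20 h. With ricolinostat, FASN had 1406 and 1379 CPM at 2 h, 1081 and 1161 CPM at 5 h, and 771 and 781 CPM at 20 h, and in DMSO 1229 and 1225 CPM. Romidepsin libraries were below DMSO at every hour, and those at 20 h were the lowest of all. FASN fell at 20 h by 0.40 ± 0.04 (adjusted p = 6e-18) with panobinostat, by 1.66 ± 0.04 (adjusted p = 1.2e-62) with romidepsin and by 0.66 ± 0.04 (adjusted p = 3.5e-29) with ricolinostat. Library size alone put the panobinostat fall at -0.10, still called. The early rise of 0.17 ± 0.04 with panobinostat at 2 h was 0.03 and not called without panobinostat 2 h replicate 2. That of 0.18 ± 0.04 with ricolinostat was 0.08 and 0.13 and not called without ricolinostat 2 h replicate 1 and replicate 2, and the fall of -0.13 ± 0.04 at 5 h was -0.22 without ricolinostat 5 h replicate 2.

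ACACA, acetyl-CoA carboxylase, had 152 and 167 CPM at 2 h, 147 and 153 CPM at 5 h, and 76.97 and 74.8 CPM at 20 h with panobinostat. Romidepsin libraries held 146 and 150.3 CPM at 2 h, 128 and 132 CPM at 5 h, and 48.5 and 46.2 CPM at 20 h of ACACA. Ricolinostat libraries held 156 and 166 CPM at 2 h, 140.1 and 142 CPM at 5 h, and 99.5 and 94.7 CPM at 20 h, and DMSO libraries 150.0 and 153 CPM. All 3 inhibitors took it below DMSO at 20 h, romidepsin the furthest. The change was -0.999 ± 0.05 (SE; edgeR adjusted p = 6.8e-35) with panobinostat, -1.68 ± 0.05 (SE; edgeR adjusted p = 5.1e-51) with romidepsin and -0.64 ± 0.05 (SE; edgeR adjusted p = 2.4e-20) with ricolinostat on the log2 scale. At 5 h it was called with romidepsin alone, -0.22 ± 0.05, a value of -0.09 that was not called on library size alone, and the panobinostat value of -0.02 was 0.12 on that scaling.

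ELOVL6 (ENSG00000170522, chromosome 4, 110045846-110199199, minus strand), which elongates palmitate, had 41.04 and 46.7 CPM at 2 h, 31.9 and 30.9 CPM at 5 h, and 10.6 and 12.2 CPM at 20 h with panobinostat. Its level with romidepsin was 41.8 and 42.9 CPM at 2 h, 55.5 and 51.1 CPM at 5 h, and 34.6 and 33.9 CPM at 20 h. Its level with ricolinostat was 46.03 and 45.3 CPM at 2 h, 52.7 and 54.05 CPM at 5 h, and 52.9 and 57.1 CPM at 20 h, and in DMSO 44.7 and 48.3 CPM. Panobinostat libraries fell away from 5 h, romidepsin libraries were above DMSO at 5 h and below it at 20 h, and ricolinostat libraries were above it at 5 and 20 h. ELOVL6 with panobinostat at 20 h was 0.246 of the DMSO level (log2 -2.02 ± 0.08 SE, edgeR adjusted p = 9e-42), and with romidepsin 0.735 (log2 -0.44 ± 0.07 SE, edgeR adjusted p = 9.7e-08). The rises at 5 h, 0.20 ± 0.07 with romidepsin and 0.20 ± 0.07 with ricolinostat, and 0.24 ± 0.07 with ricolinostat at 20 h, ended without DMSO replicate 1, at 0.13, 0.10 and 0.18. Romidepsin 5 h replicate 1 (0.12), ricolinostat 5 h replicate 1 and replicate 2 (0.10 and 0.14), DMSO replicate 2 (0.21 for ricolinostat at 5 h) and ricolinostat 20 h replicate 2 (0.17) ended them as well. With size factors of the DESeq2 type and all libraries kept, the rises at 5 h with romidepsin and ricolinostat were 0.16 and 0.14. Neither was then called.

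Among the rest, FADS1, the delta-5 desaturase, fell by 0.96 ± 0.08 at 5 h and 1.37 ± 0.08 at 20 h with panobinostat and by 1.49 ± 0.08 with romidepsin at 20 h. The FADS1 fall with ricolinostat at 20 h, -0.21, was -0.10 and not called on library size alone. SCD, the delta-9 desaturase, fell with romidepsin at 20 h by 0.78 ± 0.04 and with ricolinostat by 0.57 ± 0.04, while with panobinostat its value at 20 h was -0.06 ± 0.04, not called, with 0.25 on library size alone. FADS2, the delta-6 desaturase, had 2.22 to 4.69 CPM and was called in none of the 18 comparisons. FADS1 and FADS2 share 490 exonic bases on opposite strands. LPIN1, a phosphatidate phosphatase, fell with romidepsin at 20 h by 0.49 ± 0.05 and rose with ricolinostat at 20 h by 0.32 ± 0.04. With panobinostat LPIN1 fell by 0.30 ± 0.04 at 20 h and by 0.12 ± 0.05 at 5 h, values of 0.00 and 0.01 on library size alone, and its call of 0.15 ± 0.04 at 2 h ended at -0.00 without panobinostat 2 h replicate 2 and at 0.12 and 0.14 without DMSO replicate 1 and replicate 2.

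Romidepsin and panobinostat were given at the same dose, and their libraries were compared directly at each hour. Whether that dose inhibited HDACs to the same extent with both was not tested. Over all genes at 2 h, 743 were higher and 968 lower than DMSO with romidepsin, against 4353 and 3799 with panobinostat. At 2 h, 3 members were higher with romidepsin than with panobinostat (17.3% of all genes) and 24 lower (19.8%). At 5 h, 5 were higher (24.8% of all genes) and 23 lower (25.9%). At 20 h, 7 were higher (23.4% of all genes) and 20 lower (18.3%). Of the 18 sterol enzymes, 14, 14 and 12 were lower with romidepsin at 2, 5 and 20 h, and 2 higher at each. The 7 became 4 without panobinostat 20 h replicate 1, panobinostat 20 h replicate 2 or romidepsin 20 h replicate 1, and 3 on library size alone.

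INSIG1 had 151 and 145 CPM with romidepsin and 780.3 and 758 CPM with panobinostat at 5 h. At 20 h it had 1295 and 1247 CPM with romidepsin and 2452 and 2427 CPM with panobinostat. The log2 difference, romidepsin over panobinostat, was -2.38 ± 0.04 (SE; edgeR adjusted p = 6.5e-72) at 5 h and -0.94 ± 0.04 (SE; edgeR adjusted p = 3.3e-41) at 20 h. TM7SF2 differed by -2.84 ± 0.11 at 5 h and -0.88 ± 0.08 at 20 h, and IDI1 by -1.84 ± 0.05 and -1.01 ± 0.04. The gap at 20 h was thus smaller than at 5 h for these 3 genes in point values, a change in the gap that was not itself tested. MVK kept its gap, at -1.12 ± 0.08, -1.25 ± 0.08 and -1.12 ± 0.08 at 2, 5 and 20 h, and NSDHL had its widest at 20 h, -1.26 ± 0.07 (SE; edgeR adjusted p = 2.4e-29).

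Some members showed no called difference at 20 h. SQLE had 149 and 150.4 CPM with romidepsin and 143 and 141 CPM with panobinostat, a log2 difference of 0.07 with a 95% interval of -0.02 to 0.17. MSMO1 differed by -0.11 (95% interval -0.23 to 0.01), SC5D by -0.03 (-0.19 to 0.14), STARD4 by -0.17 (-0.37 to 0.04) and FADS1 by -0.11 (-0.29 to 0.06). For CYP51A1 the interval was wider, -0.41 to 0.32, and for FADS2 wider still, -0.59 to 0.32. These intervals allow differences of up to the bounds given.

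Among fatty acid and LXR genes the sign varied. FASN had 385 and 393 CPM with romidepsin and 941 and 914 CPM with panobinostat at 20 h, a difference of -1.25 ± 0.04 (SE; edgeR adjusted p = 1.7e-51), and ACACA and SCD differed by -0.68 ± 0.05 and -0.72 ± 0.04. ELOVL6 had 34.6 and 33.9 CPM with romidepsin and 10.6 and 12.2 CPM with panobinostat, a difference of 1.58 ± 0.09 (SE; edgeR adjusted p = 1.1e-31), and ABCA1 had 7.81 and 10.4 CPM with romidepsin and 4.50 and 4.57 CPM with panobinostat, a difference of 1.01 ± 0.15 (SE; edgeR adjusted p = 7.8e-09). FADS1 was higher with romidepsin at 5 h by 0.89 ± 0.08. For ELOVL6 and ABCA1 both romidepsin libraries at 20 h lay above both panobinostat libraries, and for FASN they lay below.

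**Figure D4:**
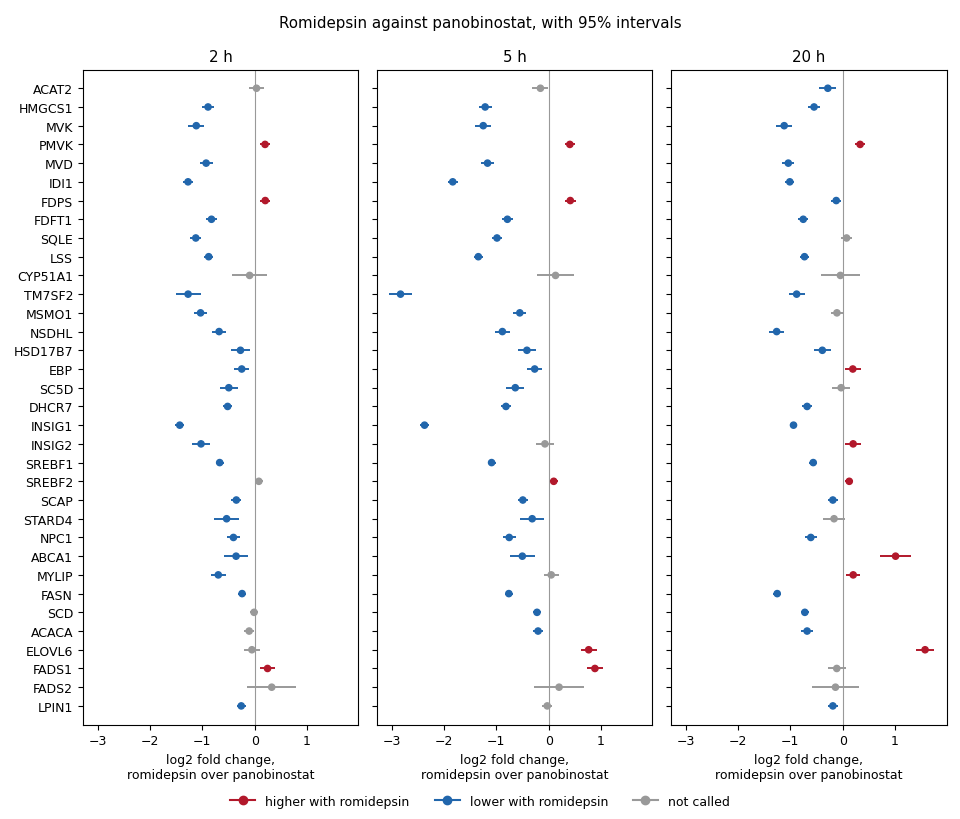
Log2 fold change of each tested member with romidepsin over panobinostat at 2, 5 and 20 h, with 95% intervals, coloured by call. Points lie mostly left of 0 at 2 and 5 h, with INSIG1 at -1.43 and -2.38, and ELOVL6 at 1.58 and ABCA1 at 1.01 lie right of 0 at 20 h.

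Ricolinostat was given at another dose, and its values are set beside the others with no test. At 2 h SQLE had 127 and 132 CPM with ricolinostat, 148 and 161 CPM with panobinostat and 70.9 and 70.8 CPM with romidepsin, against 71.7 and 73.3 CPM in DMSO. INSIG2 at 2 h had 41.4 and 43.3 CPM with ricolinostat, 42.8 and 43.2 CPM with panobinostat and 21.00 and 21.2 CPM with romidepsin, against 21.9 and 19.05 CPM in DMSO. INSIG1 at 20 h had 137 and 133 CPM with ricolinostat, 2452 and 2427 CPM with panobinostat and 1295 and 1247 CPM with romidepsin, against 199 and 217 CPM in DMSO. At 2 h the ricolinostat values of SQLE and INSIG2 stood near those of panobinostat, and at 20 h INSIG1 stood on opposite sides of DMSO.

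Successive hours of 1 inhibitor were compared without the DMSO libraries. With panobinostat, 9 members were higher at 5 h than at 2 h (19.8% of all genes) and 8 lower (22.2%), and 10 were higher at 20 h than at 5 h (27.5%) and 17 lower (28.9%). INSIG1 rose at both steps, by 0.72 ± 0.04 and 1.67 ± 0.04, as did IDI1, by 0.38 ± 0.04 and 1.09 ± 0.04, HMGCS1, TM7SF2, SREBF1, NPC1 and MVD. ABCA1 had 4.50 and 4.57 CPM at 20 h, against 21.5 and 21.8 CPM at 5 h, a change of -2.25 ± 0.14 (SE; edgeR adjusted p = 1.3e-27). On library size alone 17 members were higher at 5 h than at 2 h and 9 lower at 20 h than at 5 h, and FDFT1 and LSS, at -0.12 and -0.01 from 5 to 20 h, became 0.05 and 0.17. That scaling put the higher share of all calls at 62.7% in place of 47.2% for the first step and 60.6% in place of 48.8% for the second, and the median over all genes at 0.17 in place of 0.04 and 0.23 in place of 0.05.

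With romidepsin, 6 members were higher at 5 h than at 2 h (8.4% of all genes) and 11 lower (11.9%), and 14 were higher at 20 h than at 5 h (33.4%) and 13 lower (29.4%). The 11 became 7 without romidepsin 2 h replicate 2 and 7 on library size alone, which put the higher share of all calls at 65% in place of 41.4%. INSIG1 had 1295 and 1247 CPM at 20 h, against 151 and 145 CPM at 5 h, a rise of 3.10 ± 0.04 (SE; edgeR adjusted p = 9.3e-83), and TM7SF2 rose by 3.06 ± 0.11, IDI1 by 1.91 ± 0.05 and HMGCS1 by 1.38 ± 0.06. ACACA, FADS1 and FASN fell over the same step by 1.46 ± 0.05, 1.42 ± 0.08 and 1.09 ± 0.04. Library size alone moved the median over all genes in that step to 0.20, in place of 0.09.

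With ricolinostat, 1 member was higher at 5 h than at 2 h (6.69% of all genes) and 10 lower (8.58%), and 2 were higher at 20 h than at 5 h (17.2%) and 27 lower (20.7%). The 10 became 4 without ricolinostat 2 h replicate 1 and 5 without ricolinostat 2 h replicate 2, and the 1, ELOVL6 at 0.22, lost its call without any 1 of its 4 libraries. On library size alone 5 were higher, and the higher share of all calls was 60.6% in place of 43.8%. From 5 to 20 h, 16 of the 18 sterol enzymes fell and 1 rose. SQLE had 64.2 and 58.9 CPM at 20 h, against 118 and 132 CPM at 5 h, a fall of 1.02 ± 0.05 (SE; edgeR adjusted p = 1.6e-31). MVK, IDI1 and LSS fell by 0.82 ± 0.09, 0.81 ± 0.05 and 0.80 ± 0.04, and SREBF1 by 0.64 ± 0.04, while PMVK rose by 0.57 ± 0.05.

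Genes that serve the same pathways, from 5 further lists, were read beside the members. The shares of all genes called at 20 h were 40.8% higher and 32.3% lower with panobinostat, 38.6% and 29.9% with romidepsin, and 14.7% and 16.4% with ricolinostat. Of 10 genes of SREBP processing and sterol-triggered degradation, 1 was higher and 8 lower than DMSO with panobinostat at 20 h, and 1 higher and 8 lower with romidepsin at 20 h, with medians of -0.56 and -0.46 beside 0.25 and 0.22 over all genes. RNF145, a sterol-responsive ubiquitin ligase, had 9.04 and 12.2 CPM with panobinostat and 14.6 and 17.2 CPM with romidepsin at 20 h, against 49.2 and 48.3 CPM in DMSO, falls of 2.18 ± 0.09 and 1.61 ± 0.09. At 2 h RNF145 rose with romidepsin by 0.49 ± 0.07 and with ricolinostat by 0.64 ± 0.07.

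Of 10 genes that supply precursors and NADPH, 5 were higher and 4 lower with panobinostat at 20 h, 4 higher and 6 lower with romidepsin, and 1 higher and 5 lower with ricolinostat, with medians of 0.08, -0.51 and -0.19, beside 0.25, 0.22 and 0.03 over all genes. MID1IP1, which promotes assembly of acetyl-CoA carboxylase into its active polymer, had 80.8 and 75.4 CPM at 2 h, 74.1 and 67.9 CPM at 5 h, and 34.2 and 33.3 CPM at 20 h with panobinostat, against 174 and 184 CPM in DMSO. It fell with panobinostat at 2 h already, by 1.20 ± 0.05, and at 20 h by 2.41 ± 0.06, with 1.39 ± 0.05 for romidepsin at 20 h.

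The isoprenoid branch, which leaves the sterol path at farnesyl diphosphate, had 13 genes, of which 2 were higher and 9 lower with panobinostat at 20 h, 2 higher and 8 lower with romidepsin, and none higher and 6 lower with ricolinostat, with medians of -0.48, -0.42 and -0.18, beside the same 0.25, 0.22 and 0.03. PDSS1, a subunit of the synthase for the ubiquinone tail, fell by 1.91 ± 0.09, 1.98 ± 0.10 and 0.60 ± 0.09 with panobinostat, romidepsin and ricolinostat, and PGGT1B, a subunit of geranylgeranyl transferase, by 1.59 ± 0.11 and 1.25 ± 0.11 with panobinostat and romidepsin. Of 14 genes of sterol transport, esterification and LXR partners, 6 were higher and 5 lower with panobinostat at 20 h and 6 higher and 7 lower with romidepsin, with medians of 0.05 and -0.05. The panobinostat counts lie near the shares of all genes, and both medians lie below the 0.25 and 0.22 of all genes. RXRA, the retinoid receptor that pairs with LXR, had 63.4 and 63.5 CPM at 2 h, 34.3 and 35.1 CPM at 5 h, and 13.2 and 11.8 CPM at 20 h with panobinostat, against 90.6 and 88.4 CPM in DMSO, and fell by 2.85 ± 0.07 at 20 h, with 1.80 ± 0.07 for romidepsin. SCARB1, a receptor for high-density lipoprotein, fell by 1.80 ± 0.05, 2.57 ± 0.06 and 0.77 ± 0.05 with panobinostat, romidepsin and ricolinostat at 20 h. Of 13 other elongation and desaturation genes 10 were tested, and 5 were higher and 4 lower with panobinostat at 20 h and the same numbers with romidepsin, with medians of 0.00 and 0.07, below the same 0.25 and 0.22. FADS3, a desaturase, rose by 1.77 ± 0.08 and 1.22 ± 0.09, and HACD2, a dehydratase of the elongation cycle, fell by 0.98 ± 0.06 and 0.68 ± 0.06.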

How the data were processed

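Gene-level counts of 20 poly(A) RNA libraries were deposited as whole numbers, with no normalisation by the authors; strand-specific paired-end libraries were made, per the labels' protocols. HISAT2, SAMtools, featureCounts and the GRCh38 build are named in the submitters' processing notes; no version, annotation or strand setting is given in the sources used here. Members were matched through a table of gene identifiers and symbols, with positions and overlaps from GENCODE 29. The members and all gene lists were chosen with earlier results of these data known.

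Counts were fitted with edgeR 4.0.16 (limma 3.58.1, R 4.3.3): trimmed-mean (TMM) scaling, filterByExpr with a minimum count of 10, and a robust two-sided quasi-likelihood F test over all 10 groups, with Benjamini-Hochberg adjustment over the 20957 genes tested within each of the comparisons and a threshold of 0.05. All 10 groups share 1 estimate of the spread, with a common dispersion of 0.00175. CPM use the scaled library sizes. SE is the log2 fold change over the square root of F. Genes given library by library are at most 3 a role group, those with the largest absolute change over the 9 comparisons with DMSO, plus the 5 sensors; of each further list, at most 2 with a mean of 5 CPM or more in a group. Some genes this rule names are not reported here. The chi-square of replicates per degree of freedom was 2.33 to 5.92 in the 10 groups, above 1 in each, so no replicate pair agreed within sampling noise. The test was run on simulated counts with known changes in a small share of genes. That setting cannot check the scaling where most genes were called, as with panobinostat at 20 h. Alternatives were DESeq2 1.42.0 and its size factors, library size alone, no filter, a replicate block, the groups of a comparison alone, and leaving out each library. The last leaves 1 library in a group and repeats the filter and scaling, so a call can end with little change in its value.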

Additional observations from a re-analysis of the deposited data

Results flagged for a closer look

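In each case here romidepsin and panobinostat moved a member to opposite sides of DMSO at the same hour and dose, both moves called, with the direct test of romidepsin over panobinostat called too (edgeR quasi-likelihood test, Benjamini-Hochberg adjustment). All are log2 values. Whether the same dose inhibited HDACs to the same extent with both was not tested.

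At 2 h, FDFT1 differed by -0.83 ± 0.05 (SE; edgeR adjusted p = 4.3e-28), with -0.18 for romidepsin and 0.65 for panobinostat over DMSO. INSIG1 differed by -1.43 ± 0.04 (SE; edgeR adjusted p = 3.5e-53), with -0.27 and 1.17.

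At 5 h, INSIG1 differed by -2.38 ± 0.04 (SE; edgeR adjusted p = 6.5e-72), with -0.49 for romidepsin and 1.89 for panobinostat. In the sterol enzymes the difference was -1.84 for IDI1, -1.35 for LSS, -1.22 for HMGCS1, -0.89 for NSDHL and -0.82 for DHCR7. Their romidepsin values lay between -0.44 and -0.20 and their panobinostat values between 0.44 and 1.56. SCAP differed by -0.49 and FASN by -0.76 ± 0.04 (SE; edgeR adjusted p = 4.1e-35), with FASN at -0.57 with romidepsin and 0.19 with panobinostat. ELOVL6 went the other way, by 0.77 ± 0.08 (SE; edgeR adjusted p = 8.3e-16), at 0.20 with romidepsin and -0.57 with panobinostat.

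At 20 h, NSDHL differed by -1.26 ± 0.07 (SE; edgeR adjusted p = 2.4e-29), at -0.81 with romidepsin and 0.45 with panobinostat. FDFT1 differed by -0.75 ± 0.05 (SE; edgeR adjusted p = 4.1e-26) and DHCR7 by -0.68 ± 0.05 (SE; edgeR adjusted p = 3.9e-25). The FDFT1 call with romidepsin at 2 h ended at -0.13 on library size alone, at -0.17 without DMSO replicate 2, and at -0.20 and -0.19 without romidepsin 2 h replicate 1 and replicate 2. On library size alone the romidepsin values of FDFT1 at 20 h, LSS at 5 h and SCAP at 5 h over DMSO were 0.10, -0.07 and -0.05, so that the opposite moves were no longer both seen. That of ELOVL6 at 5 h was 0.13 without DMSO replicate 1 and 0.12 without romidepsin 5 h replicate 1, and not called in either. With size factors of the DESeq2 type and all libraries kept, it was 0.16 and also not called.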

How the results depend on the processing

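With 2 libraries a group and DMSO libraries without a harvest time, small changes are the limit of these data: by any setting tried, 50 of 216 member calls against DMSO, 16 of 82 of romidepsin against panobinostat and 37 of 128 between hours ended or turned. The early panobinostat rises and the ricolinostat fall at 20 h kept their counts of members, though not of wider genes, within 1.5 times under every setting. Replicate numbers did not pair libraries: over 45 pairs of groups the correlation of same-numbered deviations ran from -0.12 to 0.08. The replicate block moved 1 of 54 counts, members higher with ricolinostat at 5 h over 2 h (2 in place of 1), and changed no other count by over 1.5 times. Counts of the 87 wider lipid genes are given beside those of the members below. The cause of each shift was not tested.

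Size factors of the DESeq2 type gave 2 wider genes higher with romidepsin at 2 h (4 otherwise), and 4 and 5 members lower with ricolinostat at 2 and 5 h (2 and 3). Among the member calls they ended were those of NPC1 (0.15) and ELOVL6 (0.16) with romidepsin at 5 h. Others were IDI1 (0.11) and ELOVL6 (0.14) with ricolinostat at 5 h. INSIG1 (0.10) with ricolinostat at 2 h and LPIN1 (0.096) with panobinostat at 2 h lost their calls too. The DESeq2 test gave 1 wider gene higher and 5 members lower with romidepsin at 2 h, 5 members lower with ricolinostat at 5 h and 0 members higher with ricolinostat at 5 h over 2 h. No filter gave 1 member and 1 wider gene higher with romidepsin at 2 h, 1 member lower with ricolinostat at 2 h and 0 members higher with ricolinostat at 5 h over 2 h. The groups of a comparison alone gave 4 members lower with romidepsin and 4 with ricolinostat at 2 h, and 2 higher with ricolinostat at 5 h over 2 h.

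Library size alone moved 13 of 54 counts. With romidepsin at 2 h it gave 4 members higher, 7 wider genes higher and 1 member lower, and at 5 h 9 members lower (14 otherwise), with 18 wider genes higher (8) and 16 lower (28). With ricolinostat at 20 h it gave 24 wider genes higher (14) and 14 lower (23). Members higher were 3 with romidepsin over panobinostat at 20 h, 17 with panobinostat at 5 h over 2 h and 5 with ricolinostat at 5 h over 2 h, and members lower were 9 with panobinostat at 20 h over 5 h and 7 with romidepsin at 5 h over 2 h. Values that changed sign were ACACA (0.12) and LPIN1 (0.012) with panobinostat at 5 h, SCD (0.25) and LPIN1 (0.0046) at 20 h, FDFT1 (0.10), SREBF2 (0.048) and SCAP (0.15) with romidepsin at 20 h, and FDFT1 (0.054) and LSS (0.17) with panobinostat at 20 h over 5 h.

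Leaving out 1 library gave 0 to 1 members higher and 1 to 2 lower with romidepsin at 2 h, 13 to 19 higher and 1 to 4 lower with ricolinostat at 2 h, 12 to 15 higher and 3 to 5 lower with ricolinostat at 5 h, 4 to 6 higher with romidepsin over panobinostat at 20 h, 7 to 9 lower with romidepsin at 5 h over 2 h, and 0 higher and 4 to 9 lower with ricolinostat at 5 h over 2 h. Wider genes higher were 17 to 20 with panobinostat at 2 h (28), 1 to 3 and 5 to 7 with romidepsin at 2 and 5 h, and 11 to 18 (21), 14 to 19 (25) and 8 to 9 (14) with ricolinostat at 2, 5 and 20 h; wider genes lower were 4 to 7 with romidepsin at 2 h (9). SCAP with panobinostat at 20 h ran from -0.0023 to 0.060, LPIN1 with panobinostat at 2 h from -0.00095 to 0.20 and INSIG1 with ricolinostat at 2 h from -0.0094 to 0.19.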

Other observations

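Genes that store or burn fat, which are not synthesis genes, were read at 20 h beside the shares of all genes called: 40.8% higher and 32.3% lower with panobinostat, 38.6% and 29.9% with romidepsin, and 14.7% and 16.4% with ricolinostat. Of 12 genes of triglyceride synthesis and lipid droplets 11 were tested, and 8 were higher and 1 lower than DMSO with panobinostat at 20 h (median log2 fold change 0.75, beside 0.25 over all genes), 5 higher and 2 lower with romidepsin (median 0.48, beside 0.22), and none with ricolinostat, by edgeR's quasi-likelihood test. PNPLA2, the lipase that starts triglyceride breakdown, had 114 and 108 CPM at 2 h, 232 and 221 CPM at 5 h, and 313 and 313 CPM at 20 h with panobinostat. With romidepsin it had 47.8 and 47.5 CPM at 2 h, 42.5 and 34.8 CPM at 5 h, and 182 and 178 CPM at 20 h. With ricolinostat it had 67.97 and 70.5 CPM at 2 h, 68.5 and 74.5 CPM at 5 h, and 49.3 and 46.5 CPM at 20 h, and in DMSO 54.4 and 46.9 CPM. The panobinostat libraries stood above DMSO at every hour and the romidepsin libraries only at 20 h, with log2 fold changes of 2.63 ± 0.06 (SE; edgeR adjusted p = 2.8e-53) and 1.83 ± 0.06 (SE; edgeR adjusted p = 2.5e-42) at 20 h. PLIN3, a lipid droplet coat protein, rose by 1.16 ± 0.06 and 0.92 ± 0.06.

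Of 15 genes of fatty acid oxidation, 5 were higher and 8 lower with panobinostat at 20 h, 7 higher and 4 lower with romidepsin, and 7 higher and 1 lower with ricolinostat, with medians of -0.27, 0.11 and 0.12, beside 0.25, 0.22 and 0.03 over all genes. SLC25A20, the mitochondrial carnitine-acylcarnitine carrier, had 200.3 and 189 CPM at 2 h, 127 and 120.0 CPM at 5 h, and 31.3 and 33.1 CPM at 20 h with panobinostat. With romidepsin it had 237 and 226 CPM at 2 h, 206 and 202 CPM at 5 h, and 60.6 and 56.7 CPM at 20 h. With ricolinostat it had 199 and 189.5 CPM at 2 h, 181 and 167 CPM at 5 h, and 294 and 288 CPM at 20 h, and in DMSO 277 and 274 CPM. It was below DMSO in every panobinostat and romidepsin library and fell by 3.09 ± 0.05 and 2.23 ± 0.05 at 20 h, whereas ricolinostat libraries were below DMSO at 2 and 5 h and above it at 20 h, where the value of 0.08 ± 0.04 was not called. PPARA, the nuclear receptor that drives fatty acid oxidation, had 15.00 and 15.8 CPM at 2 h, 33.2 and 28.1 CPM at 5 h, and 18.6 and 23.4 CPM at 20 h with panobinostat. With romidepsin it had 6.62 and 7.41 CPM at 2 h, 5.72 and 5.84 CPM at 5 h, and 21.02 and 18.9 CPM at 20 h. With ricolinostat it had 16.00 and 13.1 CPM at 2 h, 16.00 and 16.7 CPM at 5 h, and 11.04 and 11.2 CPM at 20 h, and in DMSO 6.22 and 6.90 CPM. PPARA rose with panobinostat at each hour, by 2.21 ± 0.13 at 5 h, and with ricolinostat at each hour, by 1.31 ± 0.13 at 5 h, but with romidepsin it was called at 20 h alone, at 1.60 ± 0.13 (SE; edgeR adjusted p = 6e-21).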
